A study of Mus musculus with 28 samples.

Results

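A set of 8 transcription factor genes that establish or maintain the identity of pancreatic acinar cells was followed in mice expressing human APOBEC3B. The members, taken by name, were Ptf1a, Rbpjl, Bhlha15, Nr5a2, Gata4, Gata6, Pdx1 and Mnx1, which are 8 of 35928 gene symbols in the pancreas and liver files. Estimated counts and TPM (transcripts per library of fixed size, a level per transcript length that allows genes to be compared) were summed over the transcripts of each gene. The question was whether the acinar regulators fall together with the digestive enzymes that acinar cells make.

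APOBEC3B (A3B) is a cytosine deaminase, here fused to turboGFP and placed under a tetracycline-inducible tetO promoter in the ColA1 locus. A3B mice carried this transgene together with the ubiquitous driver CAGs-rtTA3, so expression was not limited to acinar cells. Mice were 4 weeks old at the start and ate food with 625 ppm doxycycline. The controls were littermates, on the same food according to the labels and methods (1 legend in the study describes them as without doxycycline), and the study's mouse list gives those of the pancreas set the A3B transgene without the driver.

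The pancreas and liver set had 6 A3B and 2 control samples in each tissue, all at 10 days. A3B mice 44, 49, 125, 137 and 153 and controls 45 and 168 gave both tissues, while A3B mouse 53 gave pancreas alone and A3B mouse 48 gave liver alone. A second set, deposited as a table of TPM per gene, had 3 A3B and 3 control livers and 3 A3B and 3 control lungs, with controls at 15 days, A3B livers at 10 or 14 days and A3B lungs at 10 days. By the numbers in the titles, A3B mouse 70 and control mouse 91 of this set each gave a liver and a lung. Genotype labels went against titles in 4 pancreases: those of A3B mice 44 and 137 carry the label A3B alone, and those of controls 45 and 168 carry A3B + CAGS-rtTA, although the livers of the same mice are labelled as their titles say. Control liver 11 is likewise labelled A3B + CAGS-rtTA, and control lung 87 CAGs. Groups were taken from the titles throughout. In the second set the human transgene has a row of its own, and it was at 0.0928 to 0.526 TPM in the controls, control liver 11 included, and at 90.6 to 1705 TPM in the A3B tissues. The transgene was not analysed in the pancreas libraries.

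Acinar cells make and secrete digestive enzymes, and their gene programme is held by a small network of transcription factors. Ptf1a is a basic helix-loop-helix factor that forms the PTF1 complex with a common E-protein and an RBPJ-family subunit. In development that subunit is Rbpj, and in mature acinar cells it is replaced by Rbpjl. Bhlha15, also called Mist1, is a helix-loop-helix factor that scales the secretory machinery, and the nuclear receptor Nr5a2 acts with PTF1 on enzyme genes. Gata4 and Gata6 are zinc finger factors needed for pancreas formation, and Gata6 is also needed to keep acinar cells differentiated. Pdx1 and Mnx1 are homeobox factors of the early pancreas that are later most abundant in endocrine cells, Pdx1 remaining at a low level in acinar cells.

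The pancreas libraries held 74836907 to 95604352 estimated counts, and the livers 65161064 to 118976013. The 29 digestive enzymes made up 57.2% and 59.9% of all TPM in the 2 control pancreases and 13.1% to 31.9% in the 6 A3B pancreases, so the tissue was pancreas by its defining genes in every library. Because so large a share of the control libraries is enzyme RNA, the scaling of the libraries decides the level of every other gene. TMM, which scales by the bulk of genes, gave factors of 0.210 and 0.443 for the controls and 1.30 to 1.79 for the A3B pancreases, and over all genes the median log2 fold change was then 0.09. With library totals it was 2.29, 13483 genes were called higher and 210 lower, against 3252 higher and 2848 lower of 19142 genes with TMM. The members are therefore described on TMM counts, on TPM and relative to the enzymes, and calls are with TMM unless another scaling is named. These are bulk tissues, in which fewer cells of a type and less RNA per cell cannot be told apart.

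On TMM-scaled counts in the pancreas, Rbpjl and Bhlha15 were lower in A3B mice by amounts within the range of the digestive enzymes called lower. Ptf1a was lower too, at a log2 fold change of -1.19, but by less than any enzyme called lower. The smallest of those enzyme decreases was -2.29, that of Pnliprp1. Nr5a2 was higher. By edgeR's quasi-likelihood test with Benjamini-Hochberg adjustment over all genes, 3 of the 8 members were called lower, where 14.9% of all genes tested were, and 1 was called higher, where 17% of all genes were. Gata4, Gata6, Pdx1 and Mnx1 did not pass the test. The median log2 fold change of the members was -0.22 and that of the enzymes was -3.98, with 24 of 29 enzymes called lower and 0 higher. The enzymes with the highest control levels were, all below both controls in TPM too, the elastase Cela1 (log2 fold change -8.05, SE 0.97), the elastase Cela2a (-5.26, SE 0.54) and the amylase Amy2a5 (-7.20, SE 0.79). Without control 45, 0 members were called in either direction by edgeR, with log2 fold changes of -0.78 for Ptf1a (adjusted p = 0.139), -2.99 for Rbpjl (0.14) and -2.19 for Bhlha15 (0.0563). Without control 168, Ptf1a, Rbpjl and Bhlha15 were still called lower. The number of enzymes called lower was 20 to 26 when any 1 pancreas was left out.

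**Figure D1:**
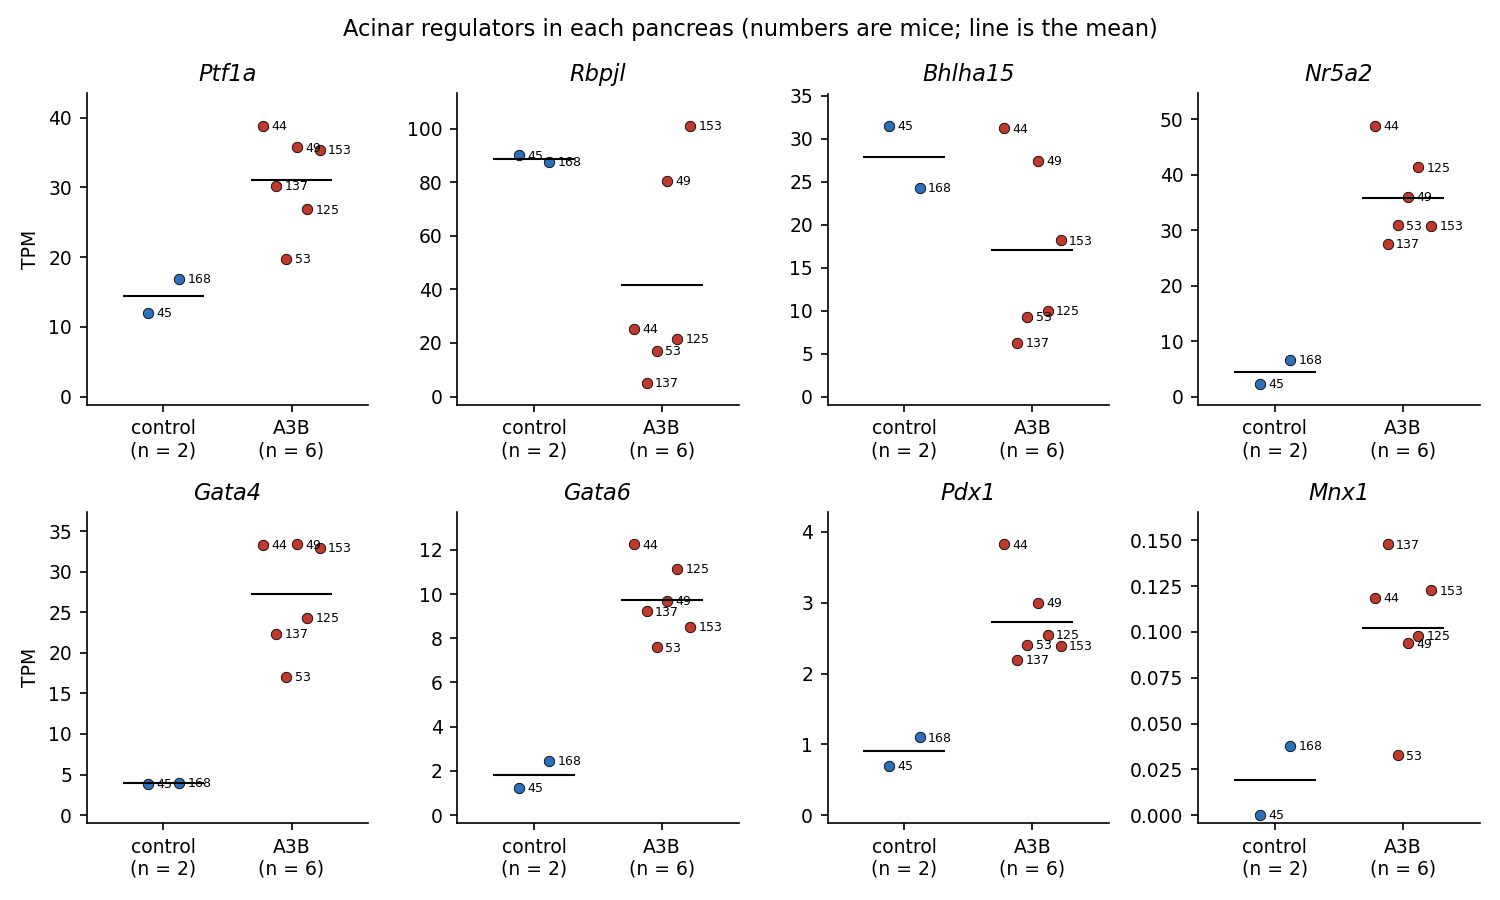
TPM of each regulator in every pancreas, 2 control and 6 A3B, with a separate linear axis for each gene, mouse numbers beside the points and a line at the group mean. Rbpjl and Bhlha15 spread widely over the A3B mice and overlap the controls, while the A3B values of Ptf1a, Nr5a2, Gata4, Gata6 and Pdx1 lie above both controls on this scale, an order that turns for Ptf1a on TMM-scaled counts, and the log2 fold change of Pdx1 is then negative.

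Ptf1a, the helix-loop-helix subunit of PTF1, was at 12.0 TPM in control 45 and 16.9 TPM in control 168. In the A3B pancreases it was at 19.8 TPM at the lowest, 32.8 at the median and 38.8 at the highest. In TPM, then, every A3B pancreas was above both controls. In CPM scaled with TMM the order was the opposite, with 75.3 and 45.9 in controls 45 and 168 and 16.002 to 35.5 in the A3B pancreases. The log2 fold change was -1.19 (SE 0.28, adjusted p = 0.0099 by edgeR) with TMM and 1.10 (SE 0.30, adjusted p = 0.00686) with library totals, so the direction of Ptf1a depends on the scaling. Relative to the median of all genes it was lower under both, by -1.29 and -1.18. Ptf1a has a single transcript in the files, and 609 bases of its exons are shared with Ptf1aos, an antisense gene that is not among those transcripts.

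Rbpjl, the RBPJ-family subunit of the mature complex, was at 90.0 TPM in control 45 and 87.6 TPM in control 168. The A3B pancreases ranged from 5.24 TPM in mouse 137 through a median of 23.3 to 101 TPM in mouse 153. Pancreases 153 and 49, the latter at 80.5 TPM, were near the controls, and the other 4 were at 25.3 TPM or less. In the controls and in pancreases 49 and 153, most Rbpjl counts were of the retained-intron transcript Rbpjl-203, treated below. In TMM-scaled CPM, controls 45 and 168 had 1224 and 558, and every A3B pancreas was lower, from 8.48 in mouse 137 to 193 in mouse 153. The log2 fold change was -3.68 (SE 0.93, adjusted p = 0.0173 by edgeR). With library totals it was -1.25 (adjusted p = 0.238), so the sign was kept and the call was lost.

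Bhlha15, the secretory scaling factor, was at 31.5 TPM in control 45 and 24.3 TPM in control 168. In the A3B pancreases it was at 6.22 TPM at the lowest (mouse 137), 14.1 at the median and 31.2 at the highest (mouse 44), and mice 44 and 49 overlapped the controls. Its TMM-scaled CPM were 490 and 164 in controls 45 and 168 and 14.5 to 71.2 in the A3B pancreases, with no overlap. The log2 fold change was -3.21 (SE 0.57, adjusted p = 0.00333 by edgeR), and -0.74 (adjusted p = 0.214) with library totals. Of 5 genes named as Bhlha15 targets in acinar cells, 4 were called lower, where 14.9% of all genes tested were, with a median of -2.80. Among them the coatomer subunit gene Copz2 changed by -2.80, the secretory vesicle GTPase gene Rab26 by -4.85 and the gap junction gene Gjb1 by -1.60. In TPM, Rab26, Copz2 and Atp2c2 were below both controls in every A3B pancreas, while Gjb1 and Rab3d were above them, so the direction of Gjb1 depends on the scaling. Relative to the enzyme sum 3 of the 5 were called higher and 0 lower, where 90.7% and 0.12% of all genes were. The summed TPM of the 5 overlapped, at 88.2 to 139 in the A3B pancreases and 96.6 and 111 in the controls. In liver, where Bhlha15 was called higher, 3 of the 5 were tested, and Gjb1 was called lower (-1.70, adjusted p = 0.029 by edgeR, and -1.62, adjusted p = 0.0339 by limma in the second set of livers) and 0 higher.

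The promoter sequences of the 3 members called lower are shown for the reader to compare, since all 3 were called lower on TMM counts, by different amounts. They are from RefSeq on GRCm38.p6, on the plus strand, 5′ to 3′, end before the earliest annotated start of the gene, and carry in capitals any match on either strand to 6 short motifs, which are the E-boxes CAGCTG and also CATATG, the RBPJ-family motif TGGGAA, the Nr5a2 motif AAGGTCA and the GATA motifs TGATAA and also AGATAA. Ptf1a chr2:19445413-19445662 (plus strand), Rbpjl chr2:164402944-164403140 (plus strand) and Bhlha15 chr5:144190036-144190285 (plus strand) lie before the exons of their own gene. Exons of other genes were not looked for in these windows.
Ptf1a: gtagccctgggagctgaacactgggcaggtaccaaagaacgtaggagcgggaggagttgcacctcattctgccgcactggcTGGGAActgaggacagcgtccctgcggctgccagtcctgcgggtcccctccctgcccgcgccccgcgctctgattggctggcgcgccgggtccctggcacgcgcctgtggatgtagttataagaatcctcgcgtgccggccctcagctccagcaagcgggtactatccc
Rbpjl: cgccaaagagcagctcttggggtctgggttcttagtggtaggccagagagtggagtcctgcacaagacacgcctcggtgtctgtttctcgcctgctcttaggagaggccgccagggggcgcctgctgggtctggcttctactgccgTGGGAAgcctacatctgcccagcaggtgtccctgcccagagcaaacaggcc
Bhlha15: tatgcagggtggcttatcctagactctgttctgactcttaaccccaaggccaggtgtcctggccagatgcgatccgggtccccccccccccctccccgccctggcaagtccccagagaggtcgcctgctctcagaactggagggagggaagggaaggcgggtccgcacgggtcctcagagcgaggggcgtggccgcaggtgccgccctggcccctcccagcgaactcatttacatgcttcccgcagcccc
The RBPJ-family letters TGGGAA occur once in the Ptf1a window and once in the Rbpjl window, at 169 and 104 bases before the RefSeq start (positions -169 and -104), and AGATAA at -31 of Rbpjl lies past the window shown. None of the 6 motifs is in the Bhlha15 window. RefSeq promoter entries, which run past the start, were matched for 6 of the members, with 2 for Nr5a2, and not for Gata4 and Gata6. TGGGAA was in 2 of these 7 promoters (28.6%), in 12 of 24 enzyme promoters (50.0%) and in 25.6% of all 32851 promoters. The E-box CAGCTG, to which helix-loop-helix factors can bind, was in 1 of the 7, in 37.5% of the enzyme promoters and in 16.3% of all promoters. The GATA letters TGATAA were in 2 of the 7, in 41.7% of the enzyme promoters and in 9.05% of all. AGATAA was in 2 of the 7, in 20.8% of the enzyme promoters and in 11.2% of all. The Nr5a2 response element AAGGTCA was in 0 of the 7, in 16.7% of the enzyme promoters and in 4.72% of all, and CATATG was in 0 of the 7, 0 of the 24 and 3.91% of all.

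Nr5a2, the nuclear receptor of the network, was at 2.22 TPM in control 45 and 6.64 TPM in control 168. In the A3B pancreases it was at 27.4 TPM at the lowest, 33.4 at the median and 48.8 at the highest, above both controls in every animal. Its TMM-scaled CPM were also above the controls in all 6 A3B pancreases, 72.5 to 115 against 46.3 and 59.1. The log2 fold change was 0.76 (SE 0.26, adjusted p = 0.0475 by edgeR), close to the threshold, and 2.88 (adjusted p = 0.000168) with library totals. The call was lost without any of A3B mice 44, 125, 137 and 153 or either control, with adjusted p between 0.0578 and 0.231, and it was lost without A3B mice 44 and 137 together (adjusted p = 0.0924).

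Gata4 was at 3.88 and 3.97 TPM in controls 45 and 168, and at 17.0 TPM at the lowest, 28.6 at the median and 33.4 at the highest in the A3B pancreases. Its log2 fold change was 0.51 (SE 0.36, adjusted p = 0.292 by edgeR) with TMM and 2.89 with library totals. Gata6 was at 1.21 and 2.45 TPM in controls 45 and 168, and at 7.59, 9.45 and 12.2 TPM at the lowest, median and highest A3B pancreas. Its log2 fold change was 0.23 (SE 0.28, adjusted p = 0.554 by edgeR) with TMM and 2.49 with library totals. Both GATA genes thus lay near the median of all genes under either scaling, Gata4 at 0.42 and 0.60 above it and Gata6 at 0.14 and 0.20 above it. In TPM the A3B values were above both controls for 5 of the 8 members, where 70.8% of all genes tested were.

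Pdx1 was at 0.699 and 1.10 TPM in controls 45 and 168, and at 2.19, 2.48 and 3.82 TPM at the lowest, median and highest A3B pancreas. Its log2 fold change was -0.67 (SE 0.33, adjusted p = 0.148 by edgeR) with TMM and 1.60 (adjusted p = 0.006) with library totals, a change of direction with the scaling like that of Ptf1a. Mnx1 was barely detected, with 0 and 6 estimated counts in controls 45 and 168 and 5 to 23 in the A3B pancreases, and a log2 fold change of 0.65 (SE 1.03, adjusted p = 0.66 by edgeR). Both are also genes of endocrine cells. Of 24 endocrine genes, 7 were called lower and 1 higher with TMM, among the most abundant Ins1 (-1.79, SE 0.50) but not Ins2 (-1.26, adjusted p = 0.102) or Gcg (0.04), and their summed TPM was 3460 and 3542 in the controls and 3843 to 13450 in the A3B pancreases. The part of islet RNA in the values of Pdx1 and Mnx1 was not tested.

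**Figure D2:**
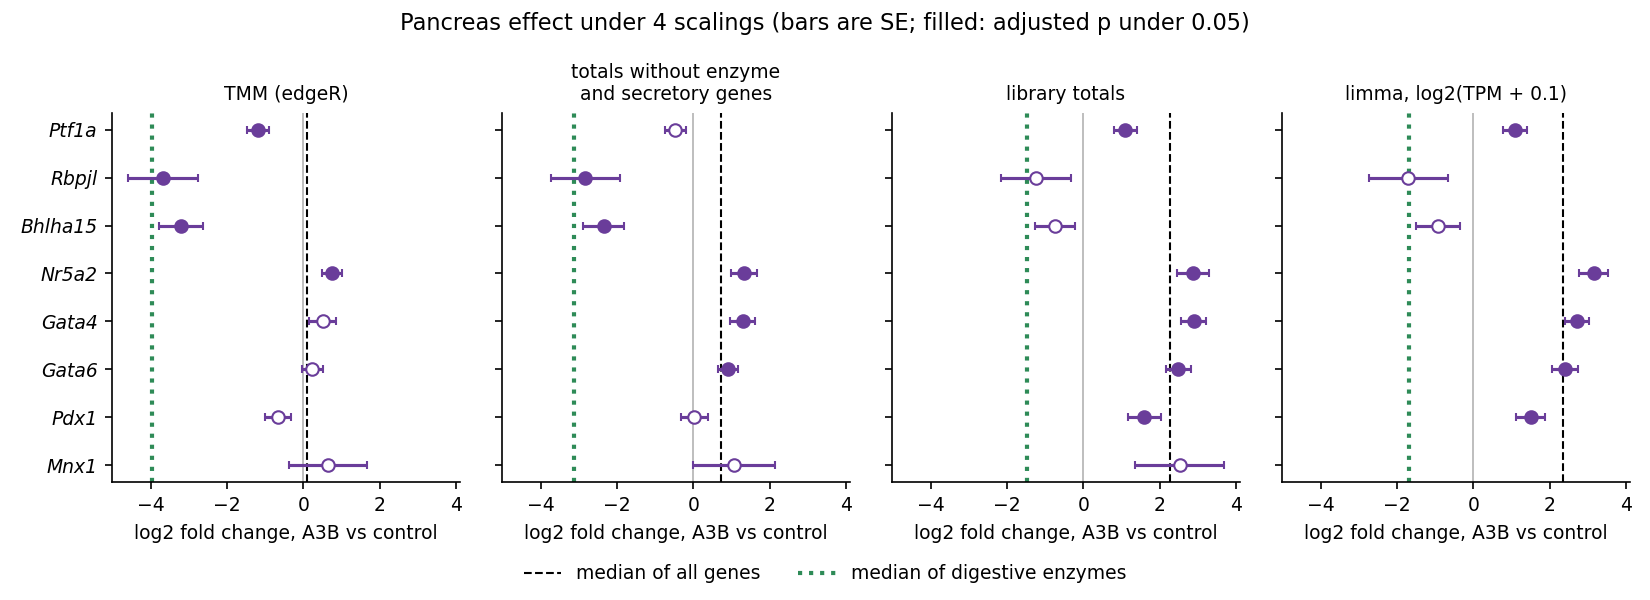
Log2 fold change of each regulator in the pancreas, A3B against control, under 4 scalings, with SE bars and filled points for adjusted p under 0.05. The dashed line is the median of all genes and the dotted line the median of the digestive enzymes, and lines and points shift together, with Ptf1a and Pdx1 changing sign between scalings and Rbpjl and Bhlha15 nearest to the enzyme line in each panel. Mnx1 has no value in the TPM panel, where it did not pass the filter.

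Relative levels within a library do not depend on the scaling. When each library was scaled to its own sum of enzyme counts, the log2 fold change of Rbpjl was 0.80 (SE 1.06, adjusted p = 0.475 by edgeR), so a departure from the enzyme sum was not detected. That of Bhlha15 was 1.32 (SE 0.62, adjusted p = 0.042), a smaller decrease than that of the enzyme sum, and the call was lost without A3B mouse 44 or 49 or either control (adjusted p of 0.0573 to 0.16) and when secretory genes joined the enzyme sum (0.0538). Ptf1a followed at 3.17 (SE 0.69) and Pdx1 at 3.71 (SE 0.95), and Mnx1, Gata6, Gata4 and Nr5a2 were at 4.42 to 4.98, against a median of 4.43 for all genes. In this scaling 7 of 8 members were called higher and 0 lower, where 90.7% of all genes were called higher and 0.12% lower, so the count itself is that of genes in general. Mnx1, among the 7, had 0 and 6 counts in controls 45 and 168. It passed the filter on low counts through the A3B group, so its call is not read as a result. Of all genes tested, 1.48% had a lower value than Rbpjl, 2.39% than Bhlha15, 16.4% than Ptf1a and 27.8% than Pdx1.

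RNA levels of the genes of the PTF1 complex were compared as TPM ratios in each library, which do not measure the complex itself. The ratio of Rbpjl to Ptf1a was 7.52 in control 45 and 5.20 in control 168, and in the A3B pancreases 0.174 at the lowest, 0.832 at the median and 2.86 at the highest, below both controls. Rbpj, the ubiquitous paralogue, which macrophages and fibroblasts also express, was called higher (log2 fold change 1.26, adjusted p = 0.00136 by edgeR), at 1.502 ± 1.02 TPM in controls (SD, n = 2) and 17.1 ± 4.94 TPM in A3B pancreases (SD, n = 6). The ratio of Rbpjl to Rbpj was accordingly 39.4 and 115 in the controls, and 0.438 to 8.41 in the A3B pancreases with a median of 1.36. The ratio of Bhlha15 to Ptf1a was also below both controls, at 0.206 to 0.805 against 1.44 and 2.63. The ratio of Nr5a2 to Ptf1a was above both, at 0.872 to 1.56 against 0.186 and 0.394, and that of Gata4 to Ptf1a at 0.739 to 0.935 against 0.235 and 0.324. Ratios show unequal change within a library, not which gene of a pair moved.

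**Figure D3:**
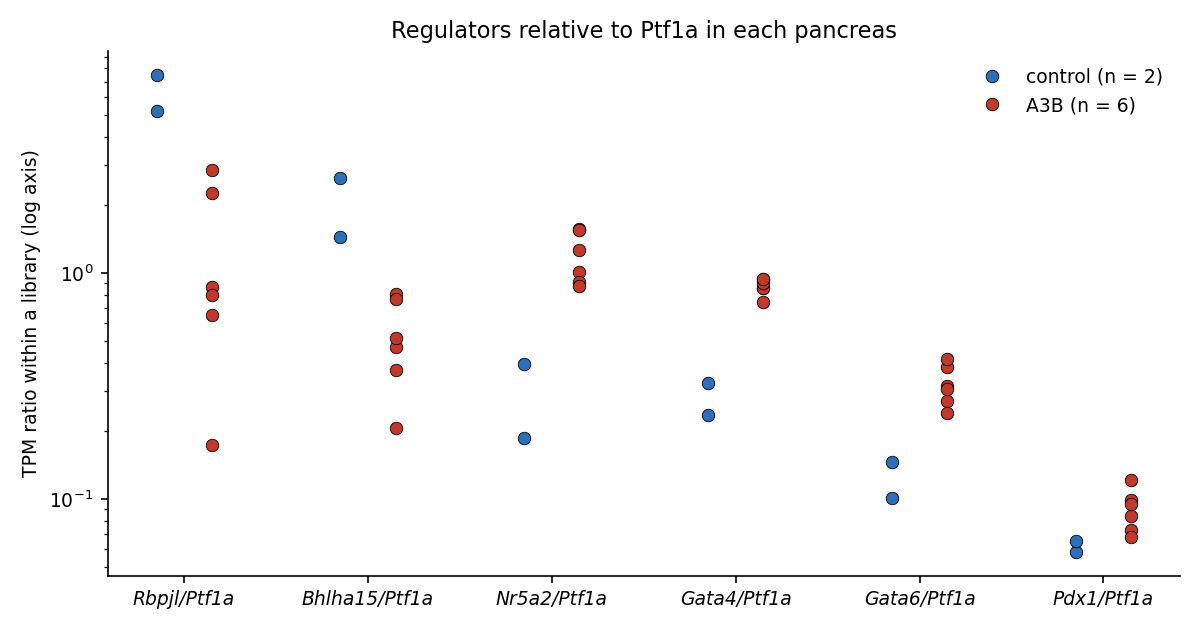
Ratio of the TPM of each regulator to that of Ptf1a within every pancreas library, on a log axis, with 2 control and 6 A3B points per ratio. Rbpjl and Bhlha15 are lower relative to Ptf1a in all 6 A3B pancreases, and Nr5a2, Gata4, Gata6 and Pdx1 are higher, Pdx1 by the smallest margin.

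The order of the members by mean TPM differed between the groups. In the controls it was Rbpjl, Bhlha15, Ptf1a, Nr5a2, Gata4, Gata6, Pdx1 and Mnx1, and the ranges of neighbours overlapped for Nr5a2 and Gata4 alone. In the A3B pancreases it was Rbpjl, Nr5a2, Ptf1a, Gata4, Bhlha15, Gata6, Pdx1 and Mnx1, and the ranges of neighbours overlapped for each pair down to Bhlha15 and Gata6. Rbpjl was first there by its mean of 41.7 TPM, which mice 49 and 153 raise, and by its median of 23.3 TPM it stood below Nr5a2, Ptf1a and Gata4. The summed TPM of the 8 genes was 141 and 143 in the controls and 103 to 229 in the A3B pancreases.

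Among 25 other regulators of the acinar programme, 1 was called lower and 5 higher, with a median of 0.18. Of all genes tested, 14.9% were called lower and 17% higher, so the count called higher is close to that of genes in general. The E-protein genes Tcf12 (1.26, SE 0.24) and Tcf3 (0.72, SE 0.20), which encode partners of Ptf1a, were called higher, as were Klf5 and the helix-loop-helix inhibitor gene Id2 (0.70, SE 0.24). The E-protein gene Tcf4 (-0.11, adjusted p = 0.706 by edgeR) and the inhibitor genes Id1 (-0.32, adjusted p = 0.485) and Id3 (0.03, adjusted p = 0.931) were not called. The forkhead gene Foxa3 was called lower (-0.91, SE 0.31). Xbp1, a driver of secretory cell endoplasmic reticulum, was at 0.18 (adjusted p = 0.681) and Myc at -0.34 (adjusted p = 0.467). In TPM all 25 except Foxa1 were higher in every A3B pancreas than in both controls, as were 70.8% of all genes tested. Foxa3 was among them, so the direction of Foxa3 depends on the scaling. Of 18 genes of the acinar secretory apparatus, 13 were called lower and 0 higher with a median of -3.36, among them, and below both controls in TPM too, the zymogen granule genes Zg16 (-3.36, SE 0.45) and Sycn (-4.30, SE 0.49) and the trypsin inhibitor gene Spink1 (-4.61, SE 0.44).

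Markers of other cell types moved with the group as well. With TMM, 9 of 10 macrophage genes (C1qa 3.48, SE 0.46, C1qb 3.71, SE 0.53, but not Lyz2 at 0.97, adjusted p = 0.257), 6 of 14 ductal genes (Clu 2.60, Spp1 2.56 and Krt19 2.33) and 6 of 10 fibroblast genes (Col3a1 2.07 and Col1a2 2.85, but not Dcn at 0.32, adjusted p = 0.597) were called higher, with 0, 0 and 1 lower. Summed macrophage TPM was 52.6 and 576 in the controls and 2265 to 6495 in the A3B pancreases, summed ductal TPM 306.8 or less against 3997 to 8390, and summed fibroblast TPM 64.4 and 247 against 1048 to 1665. In no pancreas was a macrophage, ductal or fibroblast gene of these lists at 0. Of 8 endothelial genes 1 was called higher (Cdh5, 0.96, adjusted p = 0.0183), and their summed TPM was 16.5 and 32.3 in the controls and 95.2 to 162 in the A3B pancreases. Of the T cell, B and plasma cell, adipocyte and hepatocyte lists, 0 genes were called by edgeR, and at an unadjusted p under 0.05 only 1 adipocyte gene, lower, was. Mesothelial genes, a possible source of Gata4 and Gata6, were 1 of 6 lower (Upk3b, -2.38) and 5 of 6 at an unadjusted p under 0.05, with summed TPM of 2.45 and 17.0 in the controls and 5.74 to 20.1 in the A3B pancreases. The part of these cells in the values of the members was not tested.

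Transcripts of the members were compared in the same way. Of 67340 pancreas transcripts tested, 3.37% were called lower and 13% higher, and of the members' transcripts 3 were called lower and 5 higher by edgeR. The 3 lower ones were Bhlha15-201 (-2.68, SE 0.58), the coding Rbpjl-201 (-2.86, SE 0.76) and the processed transcript Rbpjl-202 (-2.90, SE 0.73). Ptf1a-201, the same counts as the gene, was at -0.71 (SE 0.32, adjusted p = 0.17) in this fit, which is scaled over transcripts. The retained-intron transcript Rbpjl-203 was at -3.43 (SE 1.09, adjusted p = 0.0619). Its share of Rbpjl TPM was 37.8% and 50.7% in controls 45 and 168, 42.3% and 38.7% in A3B mice 49 and 153, and 7.25% to 26.2% in the other 4. The 2 A3B pancreases with the most Rbpjl were thus also those whose transcript mix was nearest to the controls, though Rbpjl-203 is itself part of that total. The coding Rbpjl-201 had 3500 and 5500 counts in A3B mice 49 and 153 and 413 to 2696 in the other 4. In controls 45 and 168 it had 6615 and 2989 counts.

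**Figure D4:**
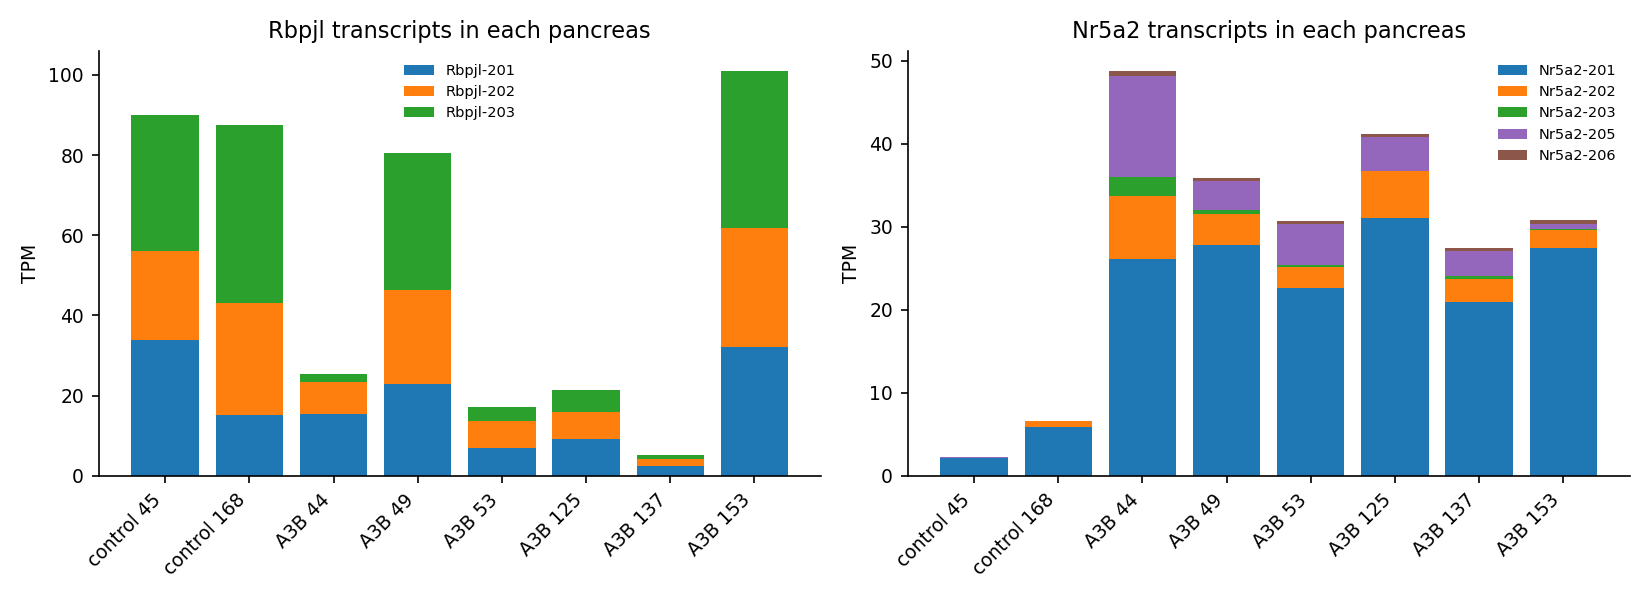
Stacked bars of TPM per transcript for Rbpjl and Nr5a2 in each of the 8 pancreases, transcripts under 0.5 TPM in every library left out. The retained-intron Rbpjl-203 is a large share of Rbpjl in both controls and in A3B mice 49 and 153, and Nr5a2-205 is visible in the A3B bars and not in the controls.

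The 5 transcripts called higher were Nr5a2-201 (1.04, SE 0.25), Nr5a2-205 (4.44, SE 1.23), Gata4-202 (1.48, SE 0.44), Nr5a2-206 and Gata4-205. The last 2 had 0 counts in both controls and passed the filter on low counts through the A3B group alone, so the count of 5 is not read against the share of all transcripts. Against a floor of 3 counts over the control group they were at least 2.81-fold and 5.14-fold higher on TMM-scaled counts, with 12 to 25 and 5 to 61 counts per A3B pancreas. The counts of calls were unstable, since 1 to 3 member transcripts were called higher when any 1 pancreas was left out (1 without control 45), and 2 of 26 without a filter on low counts, where 7298 of 95261 transcripts were. With library totals 11 of 22 were called higher and 0 lower, where 24232 and 320 of 67340 transcripts were. Those called lower were 0 to 4 on leaving out 1 pancreas, with 0 without control 45 and 1 without A3B mouse 53 or 125. Nr5a2 has several annotated starts. Transcripts from the most upstream start, Nr5a2-201 and Nr5a2-203, gave 95.6% and 89.1% of Nr5a2 TPM in controls 45 and 168 and 58.0% to 89.5% in the A3B pancreases, with a median of 76.5%. Mouse 153, at 89.5%, overlapped the controls, and mouse 44 was the lowest. Nr5a2-205, which starts downstream, had 7 and 11 counts in the controls and 68 to 1492 in the A3B pancreases. The RefSeq windows before the 2 starts, on GRCm38.p6 and read 5′ to 3′ on the minus strand, are shown since the shares of their transcripts differ between libraries, with the same motifs in capitals. The window before the upstream start is chr1:136960449-136960698 (minus strand) and that before the start of Nr5a2-205 is chr1:136953631-136953880 (minus strand), in an intron of Nr5a2-201.
Nr5a2, upstream start: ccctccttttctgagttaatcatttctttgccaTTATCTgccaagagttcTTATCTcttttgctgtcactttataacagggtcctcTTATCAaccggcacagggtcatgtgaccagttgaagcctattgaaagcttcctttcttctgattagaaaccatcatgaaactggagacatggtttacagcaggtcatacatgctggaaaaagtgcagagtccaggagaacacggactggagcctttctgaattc
Nr5a2, start of Nr5a2-205: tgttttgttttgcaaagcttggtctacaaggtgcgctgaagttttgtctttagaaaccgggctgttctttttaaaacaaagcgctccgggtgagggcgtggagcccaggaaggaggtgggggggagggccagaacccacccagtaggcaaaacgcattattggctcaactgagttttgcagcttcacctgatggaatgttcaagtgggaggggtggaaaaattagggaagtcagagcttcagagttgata
The upstream window holds the GATA letters 3 times, as AGATAA at 2 places and TGATAA at 1, all on the opposite strand and so read backwards in complement here. None of the 6 motifs lies wholly within the other window.

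Annotated places are given on GRCm38 from GENCODE M21. Ptf1a is at chr2:19445663-19447501 (plus strand), Rbpjl at chr2:164403141-164415448 (plus strand), Bhlha15 at chr5:144190286-144194441 (plus strand) and Nr5a2 at chr1:136842571-136960448 (minus strand). Gata4 is at chr14:63198922-63271692 (minus strand), Pdx1 at chr5:147269959-147275848 (plus strand) Mnx1 at chr5:29473034-29478470 (minus strand) and Gata6 at chr18:11052064-11085635 (plus strand). All are protein coding.

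Across the 6 A3B pancreases the members did not vary as 1 block, as a description of correlations in log2 CPM over 6 libraries that share the TMM scaling. Ptf1a and Gata4 were most alike (r = 0.98), followed by Nr5a2 with Gata6 (r = 0.86), while Rbpjl had r = 0.20 with Ptf1a, 0.64 with Bhlha15 and 0.05 with Nr5a2. Out of 7462 or 7463 abundant genes (10 TPM or more on average), the 3 most like each member had r that rounds to 0.98 or above. The highest of so many correlations over 6 libraries can reach such values without any relation, and a relation was not tested. They were Srp54c, Trim28 and Aggf1 for Ptf1a, Dele1, Pld2 and Klk1b7-ps for Rbpjl, and Slc35c2, Gstm1 and Vps52 for Bhlha15. For Nr5a2 they were Gpt, Midn and Klk1b27, for Gata4 Tcf25, Mta1 and Rnf10, for Gata6 Ppp1r13b, Ppp6r3 and Mark4, and for Pdx1 Nedd4, Slc45a4 and Etfdh.

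The liver, which has no acinar cells, shows the same contrast in another tissue in which Nr5a2, Gata4 and Gata6 are at work. Bhlha15 and Gata6 were called higher there, 2 of the 5 members tested, where 1.25% of all genes were called higher, and 0 members were called lower, where 2.41% of all genes were. Bhlha15 was at 0.0706 and 0.149 TPM in controls 45 and 168, and at 0.623 TPM at the lowest, 2.32 at the median and 6.18 at the highest in the A3B livers. All A3B livers were above both controls, and the log2 fold change was 4.13 (SE 0.95, adjusted p = 0.0453 by edgeR). Gata6 was at 3.60 and 1.41 TPM in controls 45 and 168 and at 5.50, 8.28 and 12.2 TPM at the lowest, median and highest A3B liver, with a log2 fold change of 1.51 (SE 0.31, adjusted p = 0.032 by edgeR). Both calls were close to the threshold and were lost without either control or without A3B liver 44, 125 or 137. In liver, 0 of 10 B and plasma cell genes, a cell type in which Bhlha15 is also known, were called by edgeR or reached an unadjusted p under 0.05, and their summed TPM was 10.8 and 18.1 in the controls and 3.82 to 26.8 in the A3B livers. Other lists did separate the groups. Summed adipocyte TPM was 11.6 and 18.6 in the controls and 46.4 to 272 in the A3B livers, with 1 gene called higher. Summed ductal TPM was 1058 and 1071 against 208 to 777, with 0 genes called. Summed hepatocyte TPM was 109095 and 161134 against 40682 to 103933, with 0 genes called. The part of these cells in the values of Bhlha15 and Gata6 was not tested.

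In the livers of this set, Nr5a2 was the most abundant member, at 25.8 and 21.1 TPM in the controls and at 22.5, 47.9 and 70.5 TPM at the lowest, median and highest A3B liver, with a log2 fold change of 0.64 (SE 0.31, adjusted p = 0.246 by edgeR). Gata4 was at 8.10 and 9.68 TPM in the controls and at 4.31 to 11.7 TPM in the A3B livers (-0.38, SE 0.33, adjusted p = 0.521). Rbpjl reached at most 0.224 TPM in liver, and Ptf1a, Pdx1 and Mnx1 did not pass the filter on low counts. Summed enzyme TPM in the livers was 81.4 and 159 in the controls and 16.5 to 988 in the A3B livers. The effect in pancreas minus that in liver, tested as an interaction over 16 libraries, was -7.15 on the log2 scale for Bhlha15 (SE 1.20, adjusted p = 0.00343 by edgeR) and -5.52 for Rbpjl (SE 1.56, adjusted p = 0.0333). A lower effect in pancreas was called for 5.02% of all genes and a higher one for 6.87%, the latter for 0 of the 5 members tested. Rbpjl was nearly absent from liver, with 13 and 1 counts in controls 45 and 168 and 5 to 48 in the A3B livers, and entered this test through pancreas, so its value is a description that adds nothing to the change in pancreas. With mouse as a replicate block the adjusted p was 0.0132 for Bhlha15 and 0.0865 for Rbpjl, and without control 45 it was 0.107 and 0.198.

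The second set of livers and lungs, tested by limma on log2(TPM + 1), holds other mice. Bhlha15 was at 1.68, 0.0739 and 0.479 TPM in control livers 11, 91 and 92 and at 25.2, 23.1 and 9.10 TPM in A3B livers 23, 28 and 70. Every A3B liver was above every control, and the change was 3.52 (SE 0.50, adjusted p = 0.0192 by limma). Bhlha15 was the 1 member called higher in these livers, where 6.07% of genes were, and the call was lost without control 91, control 92 or A3B liver 23 (adjusted p of 0.0972, 0.0959 and 0.0624). Its control mean was 0.743 TPM, under the filter of a mean of 1 TPM, so it entered the test through the A3B livers, and the count of 1 is not read against that share. In the same livers 0 members were called lower, where 1.86% of genes were. Gata6 was at 2.80, 1.20 and 0.871 TPM in the same controls and 4.49, 10.0 and 5.57 TPM in the A3B livers (1.56, SE 0.40, adjusted p = 0.0548), and without control 11, whose label gives both transgenes, its adjusted p was 0.0375. Nr5a2 (0.94, adjusted p = 0.23) and Gata4 (0.37, adjusted p = 0.518) were not called.

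In lung, Rbpjl was at 4.40, 4.60 and 6.46 TPM in controls 87, 88 and 91 and at 2.36, 2.23 and 2.54 TPM in A3B lungs 69, 70 and 74. The groups did not overlap, and the change was -0.85 (SE 0.14, adjusted p = 0.00748 by limma). This was the 1 member called lower in lung, where 20.8% of genes were, and 0 were called higher, where 16.1% were. Rbpjl shares 149 exonic bases with Matn4 on the opposite strand, and whether the strand was used in counting is not given in the sources used here. Matn4 was at 27.2 to 36.2 TPM in the control lungs and 10.6 to 12.6 TPM in the A3B lungs, and its part in the Rbpjl value was not tested. Bhlha15, at 3.34 to 5.95 TPM in control and 4.49 to 7.60 TPM in A3B lungs (0.22, adjusted p = 0.497), and Gata6, at 8.76 to 14.9 and 9.53 to 11.8 TPM (0.00, adjusted p = 0.999), were not called.

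**Figure D5:**
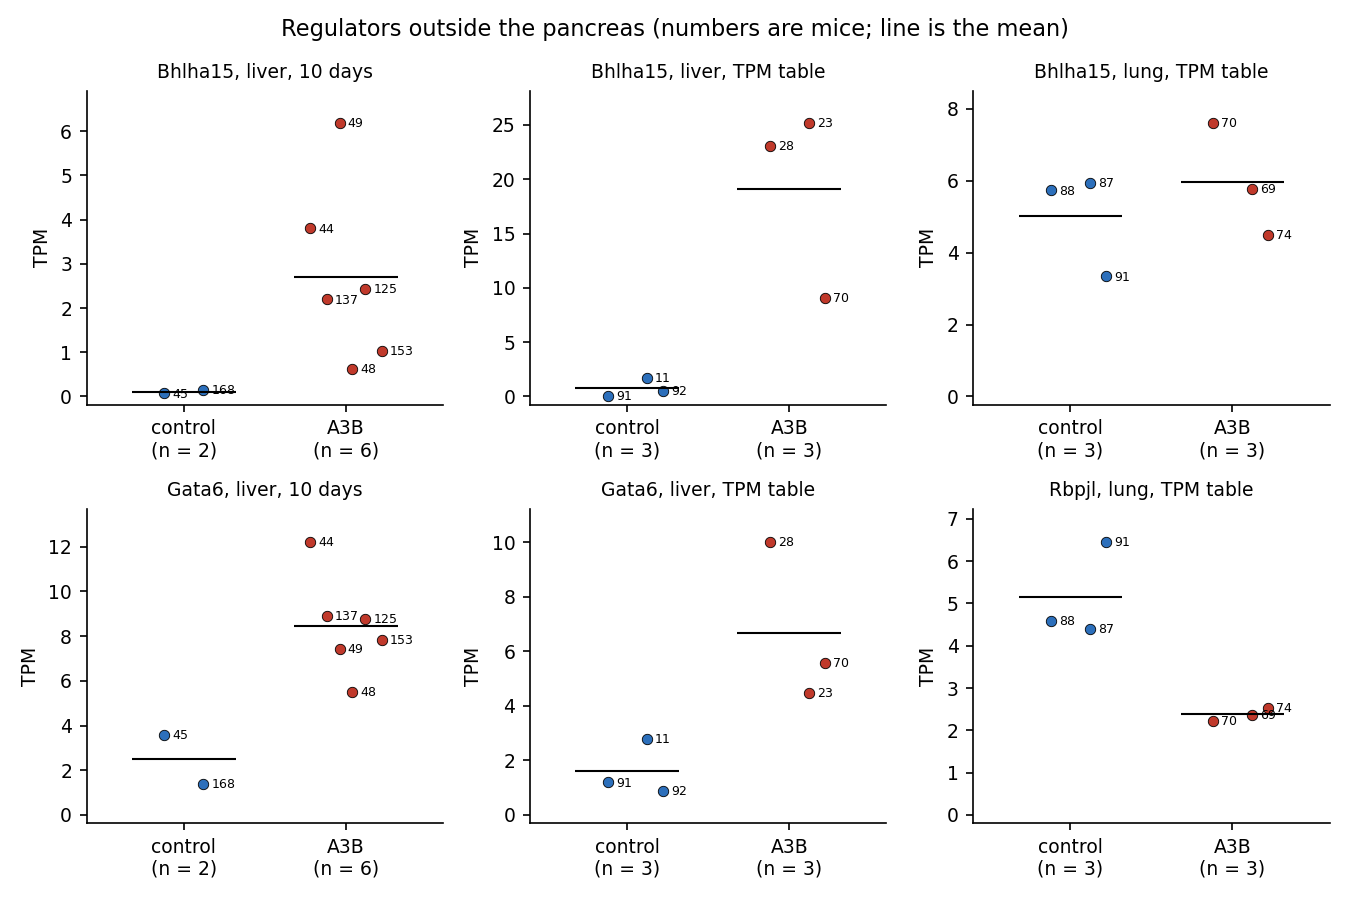
TPM of Bhlha15, Gata6 and Rbpjl in single livers and lungs, with a linear axis per panel, mouse numbers beside the points and a line at the group mean. Bhlha15 and Gata6 are higher in every A3B liver than in every control of the same set, and Rbpjl is lower in every A3B lung, while Bhlha15 overlaps between the groups in lung.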

How the data were processed

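RNA-seq of mouse pancreas and liver was deposited by the authors as kallisto v0.46.1 values per transcript (mm10), an estimated count and TPM in each library, with no further normalization. For a second set of livers and lungs the authors deposited TPM per gene, made from alignments with GenomicAlignments and GenomicFeatures. Where nothing says otherwise, each sample is 1 mouse.

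Of 119414 transcripts, 116728 were matched to GENCODE M21 genes by identifier without version, and 0.225% to 1.46% of a library's counts had no gene. Counts were summed per gene, rounded, filtered with filterByExpr, scaled with TMM and tested with edgeR 4.0.16 (robust quasi-likelihood, R 4.3.3), with an adjusted p threshold of 0.05. TPM of the second set, at a mean of at least 1, were tested with limma 3.58.1. Alternatives were DESeq2 1.42.0, other scalings, filters and pseudocounts, a Y-chromosome covariate, a mouse block (liver and pancreas numbers mark the same animals, with correlations of deviations from -0.00444 to 0.279) and leaving out libraries. Tested on simulated data, the fit recovered all changed genes at a low dispersion but missed slightly more than it found at a higher one, close to that of the pancreas libraries (biological coefficient of variation 0.468), so a gene that was not called may still differ.

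The members and lists were chosen with earlier results of these data known. Named genes were the members, the 3 genes with the highest mean TPM of each list the text describes by gene (in the control pancreases for enzymes, secretory genes and Bhlha15 targets, over all 8 pancreases for the other regulators and the cell lists), and for the other regulators the 3 with the smallest p. Foxa3, Klf5, Foxa1, Tcf4, Id1, Id3, Pnliprp1, Cdh5, Upk3b, Atp2c2 and Rab3d were named after their values were seen. Amy2a2, Amy2a3 and Amy2a4 had identical values, and such near-identical copies share reads.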

Additional observations from a re-analysis of the deposited data

Results flagged for a closer look

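The A3B effect on Bhlha15 differed between tissues, with -7.15 for the pancreas effect minus the liver effect on the log2 scale, lower in pancreas (-3.21) and higher in liver (4.13) by edgeR's interaction test. For Rbpjl the same quantity was -5.52, but Rbpjl was nearly absent from liver, at 1 to 48 counts per library (0.00535 to 0.224 TPM), so its liver value of 2.01 is at the floor and the difference adds nothing to the -3.68 in pancreas. The interaction for Rbpjl was not called with mouse as a block (adjusted p = 0.0865). Within the groups of 6, Dixon's criterion on TPM and on TMM-scaled CPM set apart 2 libraries, where chance sets apart about 1 group in 20. Pdx1 was at 5.21 CPM in A3B pancreas 44 and at 2.89 to 3.30 CPM in the other 5, and without mouse 44 its log2 fold change was -0.83 (adjusted p = 0.0654 by edgeR). Ptf1a was at 0.189 TPM (16 counts) in A3B liver 153 and at 0 to 3 counts in the other 5.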

How the results depend on the processing

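In pancreas, 3 members were called lower with TMM, and 0 with library totals or with limma on log2(TPM + 1) or log2(TPM + 0.1). Members called higher were 5 under each of those 3 settings, 3 with totals that leave out enzyme and secretory genes, and 0 with upper quartile scaling, with Y-chromosome expression as a covariate and without A3B pancreases 44 and 137, against 1 with TMM. Of all genes, 13483 of 19142 were called higher with totals, 11405 and 11552 of 13597 with log2(TPM + 1) and log2(TPM + 0.1), and 5962 of 19142 with totals without enzyme and secretory genes, so these counts say nothing particular about the members. Enzymes called higher were 3 under each of the same 3 settings. In the order totals, log2(TPM + 1) and log2(TPM + 0.1), Ptf1a turned to 1.10, 1.04 and 1.09 and Pdx1 to 1.60, 0.97 and 1.51, and Pdx1 was 0.023 with totals without enzyme and secretory genes. Since TMM and totals differ only in scaling, that choice sets these directions. With totals Ptf1a-201 was 1.10 and Pdx1-201 was 1.60, 0 member transcripts were called lower and 11 of 22 higher (24232 of 67340 of all transcripts were called higher), and without a filter 2 were called higher.

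In liver, limma on log2(TPM + 1) called 1 member higher, and Gata4 was 0.071 with totals. The interaction gave 1 member lower with mouse as a replicate block, with totals and without a filter, and 2 higher with totals, where Gata6 was 0.52. The cause of these changes was not tested.

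When 1 library was left out, members called lower in pancreas ranged from 0 (without control 45) to 3 and higher from 0 to 1, members called higher in liver from 0 to 2, interaction members called lower from 0 to 2, and members called higher in the second set of livers from 0 (without control 91, control 92 or A3B liver 23) to 2. Member transcripts called lower ranged from 0 to 4 and higher from 1 to 3. Mnx1 in pancreas ranged from -0.090 to 6.82 and Gata6 in lung from -0.15 to 0.21. With 2 controls per tissue, leaving out 1 assumes that the lone control varies like the A3B group. The design has few controls, and Mnx1 at 0 to 23 counts is too shallow to show a difference of this size.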
